A study of Mus musculus with 8 samples.

Results

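The genes described here act in the late cell cycle, at the passage from G2 into mitosis and through cell division. They were chosen by name, as a list of 58 genes of mitosis and the G2/M transition, and all 58 had at least 1 entry in a table of 3903 genes that compares 12 clusters of mouse fat precursor cells. Each was followed through every cluster, and clusters 5, 6 and 9, where they were detected most, were compared with each other.

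The cells were primary preadipocytes, the precursors of fat cells, grown from the inguinal white fat of young adult C57BL/6 mice. They came from wild type (WT) mice and from mice that carry deletions of both Hmgn1 and Hmgn2 (DKO) in every cell, genes for nuclear proteins that bind nucleosomes. Cultures were taken at day 0, before treatment, and at day 6 of browning, the conversion towards heat-producing brown-like fat cells, which was started with insulin, dexamethasone, IBMX, T3 and rosiglitazone. There were 2 cultures for each genotype and day, hence 8 samples in 4 groups, and single-cell RNA was read from the 3′ end of transcripts.

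The study asked with these cells whether loss of HMGN speeds browning and whether DKO cultures hold populations of their own. Samples, genotypes and days are not separated in the table, so DKO was not compared with WT here, nor day 6 with day 0. Because it pools the cells of all samples, no value below has a replicate, an SD or a test. The number of cells and the read depth behind each value are not known from it either. The clusters were formed from the same cells and genes, so a difference between a cluster and the other cells is a description. What is given for each gene and cluster is its detection, the percent of cells with at least 1 transcript of the gene, inside the cluster and among all other cells. Detection is bounded at 100%, moves with how deeply each cell was read, and is no level of RNA, so genes are compared with themselves across clusters.

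A cell that has copied its DNA enters mitosis when Cdk1, bound to cyclins A and B, becomes active. Chromosomes are then condensed, attached through kinetochores to the microtubules of a spindle, held under a checkpoint until all are attached, and pulled apart once the anaphase-promoting complex (APC/C) marks its targets for destruction. Transcripts of many of these genes are low in G1 and peak in G2 and mitosis, and they are widely used to recognise dividing cells. In cultured preadipocytes, division continues until confluence, and cells can divide again early after induction of fat cell formation before they mature.

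Such genes are known to share promoter elements, a cell cycle homology region with the letters TTTGAA or TTTAAA, and CCAAT boxes, which the factor NF-Y binds. RefSeq promoters (GRCm38.p6, the build also called mm10) were at hand for 50 of the 58 genes. The other 8, Aurkb, Ccna2, Dlgap5, Incenp, Kif20a, Smc4, Spc24 and Tpx2, had no entry among them. For display, the 5 genes with the largest ratio of detection inside over outside cluster 9 were taken, leaving out Kif20a, which had the fifth largest. They were Kif2c, Plk1, Aurka, Kif23 and Cdc20. Kif2c and Aurka are not shown, because their listed starts, 117178772 on chromosome 4 and 172370570 on chromosome 2, lie 3852 and 316 bases inside the genes as RefSeq bounds them. The sequences below run 5′ to 3′ on the strand of the gene and end at or near its listed start. They were cut to the bases outside the gene's own RefSeq bounds and outside exons of protein-coding genes in GENCODE vM21, which took the last 11 bases from Kif23 and the last 9 from Cdc20. Capitals mark the elements TTTGAA or TTTAAA and the CCAAT box on either strand, so that a box on the opposite strand appears as ATTGG.

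Plk1, chr7:122159185-122159434, plus strand: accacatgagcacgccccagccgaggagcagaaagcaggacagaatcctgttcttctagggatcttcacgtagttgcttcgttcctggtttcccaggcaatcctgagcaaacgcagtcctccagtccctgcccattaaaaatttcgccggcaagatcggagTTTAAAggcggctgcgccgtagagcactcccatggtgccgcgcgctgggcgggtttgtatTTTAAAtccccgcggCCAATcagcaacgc
Kif23, chr9:61946811-61947049, minus strand: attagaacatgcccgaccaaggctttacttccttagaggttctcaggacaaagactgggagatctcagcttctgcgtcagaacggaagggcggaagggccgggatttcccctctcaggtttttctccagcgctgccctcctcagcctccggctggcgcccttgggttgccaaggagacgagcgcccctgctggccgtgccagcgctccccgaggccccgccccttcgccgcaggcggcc
Cdc20, chr4:118437353-118437593, minus strand: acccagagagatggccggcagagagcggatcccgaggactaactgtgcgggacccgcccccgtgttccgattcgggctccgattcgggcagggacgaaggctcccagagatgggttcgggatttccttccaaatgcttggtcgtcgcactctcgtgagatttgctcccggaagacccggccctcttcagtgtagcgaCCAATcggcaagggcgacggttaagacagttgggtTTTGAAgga

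These are the promoters of the polo-like kinase, a subunit of the centralspindlin complex and the activator of the APC/C. Plk1 had 2 matches to TTTAAA, the nearer one 29 to 24 bases before the start, followed by a CCAAT at 14 to 10 bases. In Cdc20 a TTTGAA lay 18 to 13 bases before the start, between a CCAAT at 53 to 49 bases and another at 8 to 4 bases, the latter in the bases not shown. Kif23 had a single match, ATTGG, 7 to 3 bases before its start and so also in bases not shown.

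Over the 250 bases before the start, 36 of the 50 promoters (72.0%) held CCAAT on either strand, against 34.5% of all 27025 promoters. The 50 include Kif2c and Aurka, whose listed starts lie inside the genes, and all promoters were counted from their listed starts. At least 2 copies were present in 26 (52.0%), against 10.5% of all promoters. TTTGAA was found in 19 (38.0%, against 16.3%) and TTTAAA, which reads the same on both strands, in 7 (14.0%, against 12.1%), so that the share of the latter was near that of all promoters. Either of these can share an end base with a CCAAT box. Both kinds of element, CCAAT with either TTTGAA or TTTAAA, stood together in 22 (44.0%), against 9.0% of all promoters. These are matches of letters, and no binding was measured in these samples.

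Among the 12 clusters, the 58 genes had 333 entries. An entry exists only where the authors' minimums for detection and for the difference between the cluster and the other cells were met, so a missing entry is no value of 0, and a gene with an entry had to differ. Clusters 5, 6 and 9 held 39, 57 and 56 of these entries, and in each of them detection was higher inside the cluster than outside it. A gene was counted as higher where its detection inside was at least 1.5 times that outside. By that count 39 of the 58 genes were higher in cluster 5, where 11.8% of all genes of the table were. In cluster 6 it was 56 of 58, against 13.5% of all genes, and in cluster 9 it was 55 of 58, against 9.27%. Among all genes that were higher in cluster 5, 8.46% belonged to the list, and for clusters 6 and 9 this share was 10.6% and 15.2%. Their median detection was 58.2% inside cluster 5 and 14.7% outside it, 62.9% and 12.2% for cluster 6, and 74.8% and 12.8% for cluster 9. The median ratio was 4.28, 5.29 and 5.44 in these clusters, whereas over all entries it was 1.42, 1.14 and 1.36. The medians of the list are over 39, 57 and 56 genes, so they do not compare the clusters over the same genes.

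Entries for all of clusters 5, 6 and 9 were present for 39 genes. A further 16 had entries for clusters 6 and 9 but none for cluster 5, namely Arl6ip1, Aspm, Aurka, Ccnb1, Ccnb2, Cdc20, Cenpa, Cep55, Ckap2, Kif20a, Kif22, Kif23, Kif2c, Knstrn, Ncapd2 and Plk1. Of the remaining genes, Ccnf and Ttk had an entry in cluster 6 alone among these clusters, and Pttg1 in cluster 9 alone. The heat map of detection by cluster shows these columns standing apart from the rest.

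**Figure D1:**
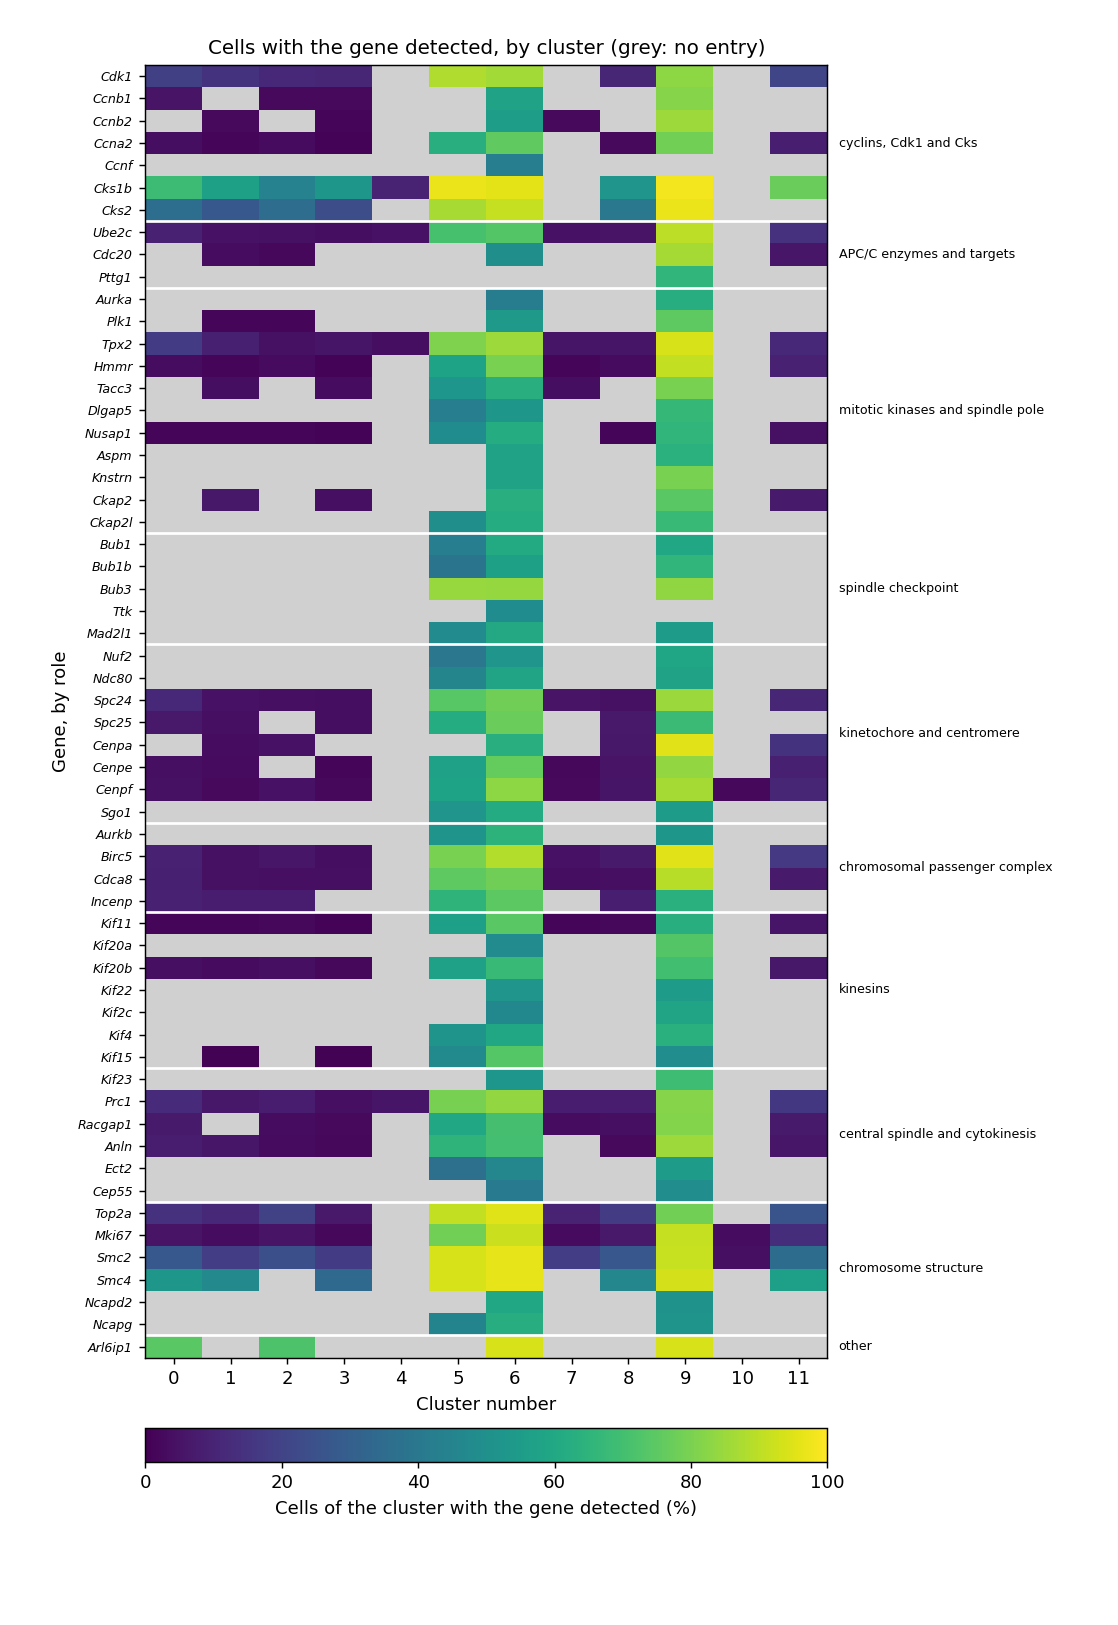
Heat map of the percent of cells with each of the 58 genes detected (colour, 0 to 100%) in clusters 0 to 11 (columns), with genes in rows by role and grey where the table has no entry. Clusters 5, 6 and 9 hold nearly all bright fields, with Cks1b, Cks2, Smc2, Smc4 and Arl6ip1 also detected in many cells elsewhere.

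The 3 clusters were compared through the ratio of a gene's detection in one to that in another. Detection in cluster 9 was above that in cluster 6 for 36 of the 55 genes with both entries, with a median ratio of 1.08. Over the 532 genes of the table with both entries the median was 1.04 and 63.7% lay above 1, close to the 65.5% of the list, so the list as a whole was not set apart from other genes by this ratio. Within the list the ratio ran from 0.66 for Kif15 to 1.74 for Cdc20. Detection in cluster 5 was below that in cluster 6 for 36 of 39 genes, with a median ratio of 0.84, while over the 631 genes of the table with both entries the median was 1.01 and 53.9% lay above 1. The 3 exceptions were Cdk1, Cks1b and Bub3. Of the 39 genes, 32 were lowest in cluster 5, 6 in cluster 9 and 1 in cluster 6, and 21 rose in the order 5, 6, 9. Between those with and without an entry for cluster 5 the ratio of cluster 9 to cluster 6 differed. It had a median of 1.35 in the 16 genes without one, 14 of them above 1, and of 1.04 in the 39 genes with one, 22 of them above 1. The same split was not made over all genes of the table. Cells outside cluster 5 include those of clusters 6 and 9, so having an entry is not independent of this ratio.

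**Figure D2:**
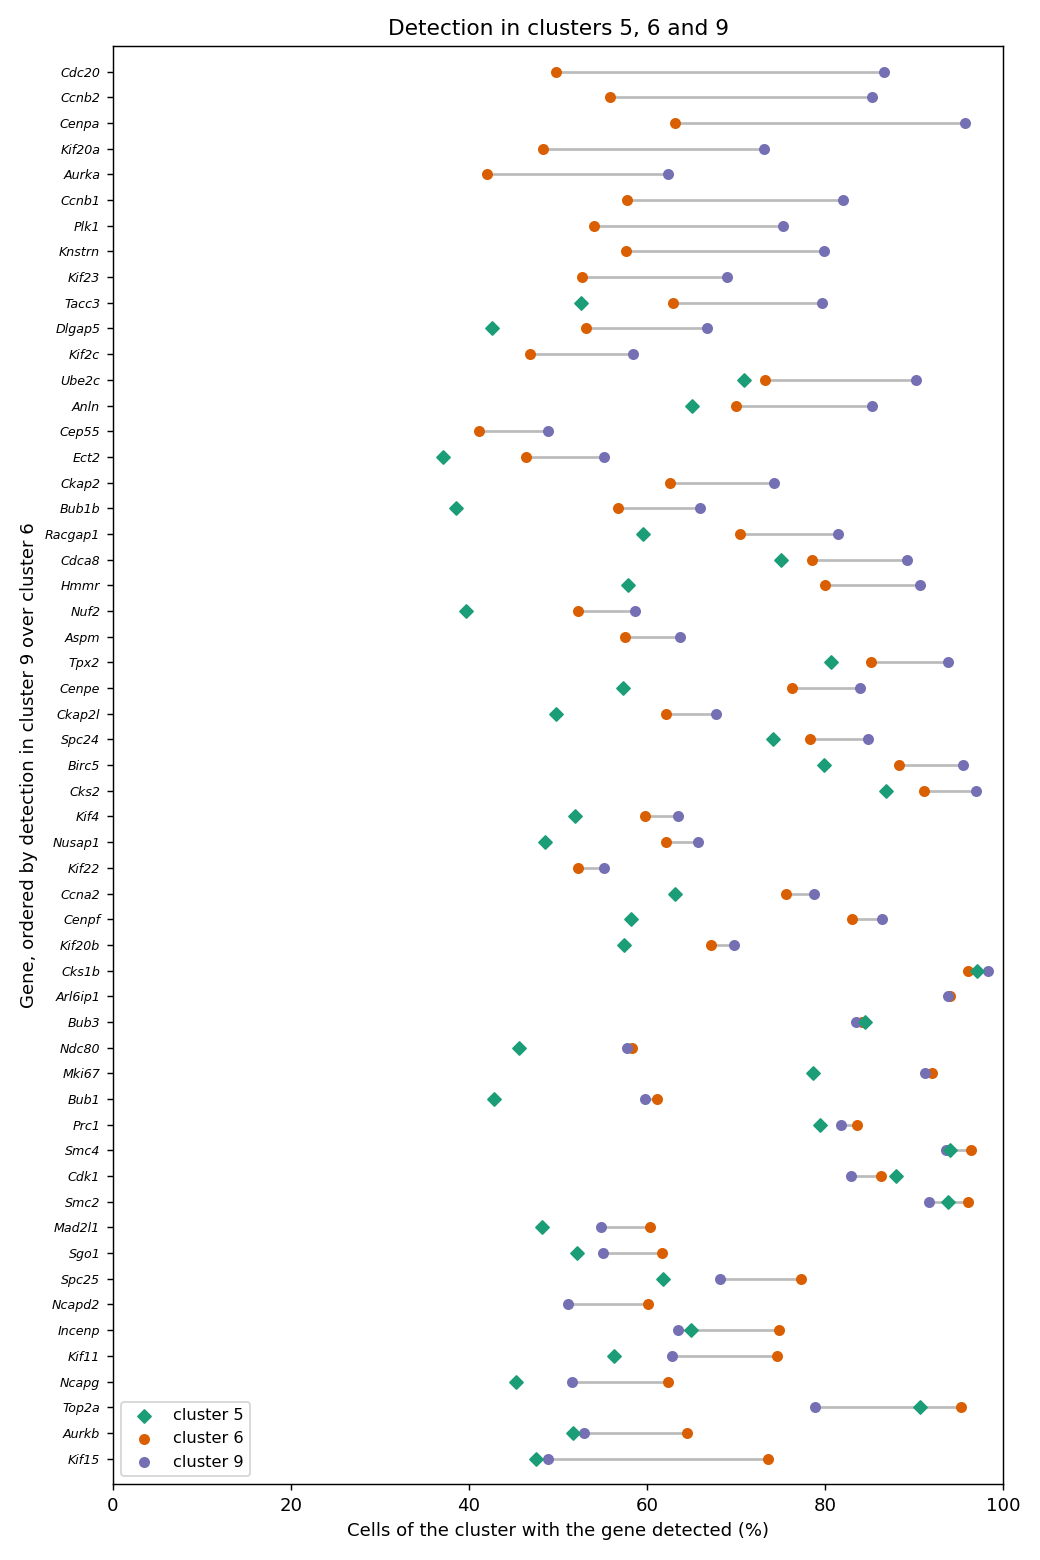
Percent of cells with the gene detected (horizontal axis) in clusters 5 (diamonds), 6 and 9 (circles) for the 55 genes with entries for clusters 6 and 9, ordered by the ratio of cluster 9 to cluster 6. Cdc20, Ccnb2 and Cenpa at the top were detected in far more cells of cluster 9, Kif15 and Aurkb at the bottom in more cells of cluster 6, and most diamonds lie to the left of both circles.

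Cdk1, the kinase that drives entry into mitosis, was detected in 88.0% of cells in cluster 5, 86.3% in cluster 6 and 82.9% in cluster 9, against 23.1%, 24.2% and 25.5% of the cells outside each. Its detection was thus nearly level over the 3 clusters and slightly highest in cluster 5. The B-type cyclins that activate it were not level. Ccnb1 was detected in 57.8% of cells in cluster 6 and 82.0% in cluster 9, and Ccnb2 in 55.8% and 85.3%, ratios of 1.42 and 1.53, with no entry for cluster 5. Ccna2, cyclin A2, which acts from S phase on, was found in 63.1%, 75.6% and 78.8% of cells in clusters 5, 6 and 9. Ccnf, an F-box protein that recruits targets to an SCF ubiquitin ligase, had 1 entry, 42.8% inside cluster 6 and 5.0% outside it.

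Cks1b and Cks2, small proteins that bind Cdk kinases, were detected in many cells outside the 3 clusters too. Cks1b was found in 97.1%, 96% and 98.3% of cells in clusters 5, 6 and 9, but its ratios were only 1.72, 1.68 and 1.70. Elsewhere it was found in 77.0%, 68.5%, 57.0%, 52.8%, 52.2% and 44.2% of cells in clusters 11, 0, 1, 3, 8 and 2. In cluster 4 it was found in 9.9%, but there the median ratio over the entries of all genes was 0.17. Cks2 was found in 86.8%, 91.1% and 96.9% of cells in clusters 5, 6 and 9 and in 23.6% to 40.2% of the cells of clusters 0, 1, 2, 3 and 8.

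Among the enzymes and targets of the APC/C, Cdc20 showed the widest gap between clusters 6 and 9. It was detected in 49.8% of cells in cluster 6 and 86.6% in cluster 9, against 12.4% and 10.7% outside them. Ube2c, the ubiquitin-conjugating enzyme of the complex, was found in 70.9%, 73.2% and 90.2% of cells in clusters 5, 6 and 9, and in no more than 14.2% of the cells of any other cluster that lists it. Pttg1 encodes securin, the target whose destruction frees separase. It was listed for cluster 9 alone, at 65.8% inside and 20.5% outside, a ratio of 3.21.

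All 11 genes grouped as mitotic kinases and spindle poles were detected in more cells of cluster 9 than of cluster 6, with a median ratio of 1.19. The group holds the kinases Plk1 and Aurka, but not every kinase of the list. Cdk1, Bub1 and Aurkb, placed in other groups, had ratios of 0.96, 0.98 and 0.82, and Bub1b had 1.16. Ttk had no entry for cluster 9. Plk1 was detected in 54.0% of cells in cluster 6 and 75.3% in cluster 9, and Aurka in 42.0% and 62.4%. Outside cluster 9 they were found in 8.9% and 7.5% of cells. Tpx2, which brings Aurora A to the spindle, was detected in 80.7%, 85.2% and 93.8% of cells in clusters 5, 6 and 9. Hmmr, a microtubule-binding protein of the spindle, climbed from 57.9% in cluster 5 to 80.0% in cluster 6 and 90.7% in cluster 9. Knstrn, a partner of the spindle and kinetochore, went from 57.6% in cluster 6 to 79.9% in cluster 9. Tacc3 (52.6%, 62.9% and 79.7% in clusters 5, 6 and 9) and Dlgap5 (42.6%, 53.1% and 66.7%), which stabilise spindle microtubules, rose in the same order. The smaller gaps in this group were those of Nusap1, 62.1% and 65.7% in clusters 6 and 9, Ckap2l, 62.1% and 67.8%, and Aspm, 57.5% and 63.7%. Ckap2 stood at 62.6% and 74.3%.

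Spindle checkpoint genes, which delay anaphase until chromosomes are attached, were split. Bub1b was detected in 38.5%, 56.7% and 65.9% of cells in clusters 5, 6 and 9, whereas Bub1 reached 42.8%, 61.1% and 59.8% and Mad2l1 48.2%, 60.3% and 54.8%. Only Bub1b of the 4 genes with both entries was above 1 in the ratio of cluster 9 to cluster 6. Bub3, which also serves outside mitosis, was almost flat at 84.5%, 84.1% and 83.5% against 52.5 to 53.6% of the cells outside each. Ttk, the kinase Mps1 at the head of the pathway, was listed for cluster 6 alone, at 48.7% inside and 5.4% outside, and its ratio of 9.02 was the largest of any entry of the list.

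Kinetochores link the centromere to microtubules. Cenpa, the histone H3 variant that marks centromeres, was detected in 63.1% of cells in cluster 6 and in 95.7% in cluster 9, with 12.7% outside cluster 9. The motor Cenpe was found in 57.3%, 76.3% and 83.9% of cells in clusters 5, 6 and 9 and the large kinetochore protein Cenpf in 58.2%, 83.0% and 86.4%. The 4 subunits of the NDC80 complex, which grips the microtubule end, did not move alike. Nuf2 stood at 39.7%, 52.3% and 58.7% in clusters 5, 6 and 9 and Spc24 at 74.2%, 78.3% and 84.8%, both highest in cluster 9. Ndc80 stood at 45.6%, 58.3% and 57.8% and Spc25 at 61.8%, 77.3% and 68.2%, both highest in cluster 6. Sgo1, the protector of cohesin at centromeres, was also highest in cluster 6, at 61.7%, with 52.1% in cluster 5 and 55.1% in cluster 9.

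The chromosomal passenger complex, which corrects faulty attachments, divided by subunit. Birc5 (survivin) was detected in 79.9%, 88.3% and 95.5% of cells in clusters 5, 6 and 9 and Cdca8 (borealin) in 75.1%, 78.5% and 89.2%. The kinase of the complex, Aurkb, reached 51.7%, 64.5% and 52.9% and its scaffold Incenp 64.9%, 74.8% and 63.5%, so that both peaked in cluster 6. In the ratio of cluster 9 to cluster 6 the first pair stood at 1.08 and 1.14 and the second at 0.82 and 0.85. The related kinases Aurka and Aurkb thus leaned to opposite sides, with ratios of 1.49 and 0.82.

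The motors of the spindle spanned almost the whole range. Kif15 was detected in 47.5% of cells in cluster 5, 73.6% in cluster 6 and 48.9% in cluster 9, and Kif11, which pushes the spindle poles apart, in 56.3%, 74.6% and 62.8%. The other 5 were detected in more cells of cluster 9 than of cluster 6, as were 63.7% of all genes with both entries. Kif20a, a motor of the central spindle, was found in 48.3% of cells in cluster 6 and 73.1% in cluster 9, and Kif2c, which shortens microtubules, in 46.8% and 58.4%. Kif20b (67.2% and 69.8%), Kif4 (59.8% and 63.5%) and Kif22 (52.2% and 55.2%), the latter pair motors on chromosome arms, differed by less than 4 percentage points.

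Cytokinesis genes build the central spindle and cut the cell in 2. In 5 of 6 cases they were detected in more cells of cluster 9 than of cluster 6, with a median ratio of 1.19. Over all genes with both entries 63.7% lay above 1, with a median of 1.04. Kif23 and Racgap1 form centralspindlin. Kif23 was found in 52.7% and 69.0% of cells in clusters 6 and 9, and Racgap1 in 59.5%, 70.4% and 81.5% in clusters 5, 6 and 9. Anln, the scaffold of the contractile ring, stood at 65.1%, 70.0% and 85.3%, and Ect2, which activates the ring through RhoA, at 37.1%, 46.4% and 55.2%. Cep55, which acts at the final cut, was detected in 41.1% of cells in cluster 6 and 48.9% in cluster 9. The exception was Prc1, the bundler of central spindle microtubules, at 79.4%, 83.6% and 81.8%.

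Genes of chromosome structure leaned the other way, with none of 6 above 1 in the ratio of cluster 9 to cluster 6 and a median of 0.90. Top2a, the topoisomerase that untangles DNA, was detected in 90.7%, 95.3% and 78.9% of cells in clusters 5, 6 and 9. The condensin subunits Ncapg (45.3%, 62.3% and 51.6%) and Ncapd2 (60.1% and 51.1% in clusters 6 and 9) were also lower in cluster 9. Smc2 and Smc4, the core of condensin, stayed between 91.7% and 96.4% in all 3 clusters, where detection has little room to move. Mki67, the proliferation antigen Ki-67 that coats mitotic chromosomes, stood at 78.6%, 92.0% and 91.2%. Arl6ip1, which shapes the endoplasmic reticulum, was the only gene with entries for clusters 6 and 9 to miss the ratio of 1.5 in both, at 94.0% and 93.8% inside against 68.8% and 69.3% outside.

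**Figure D3:**
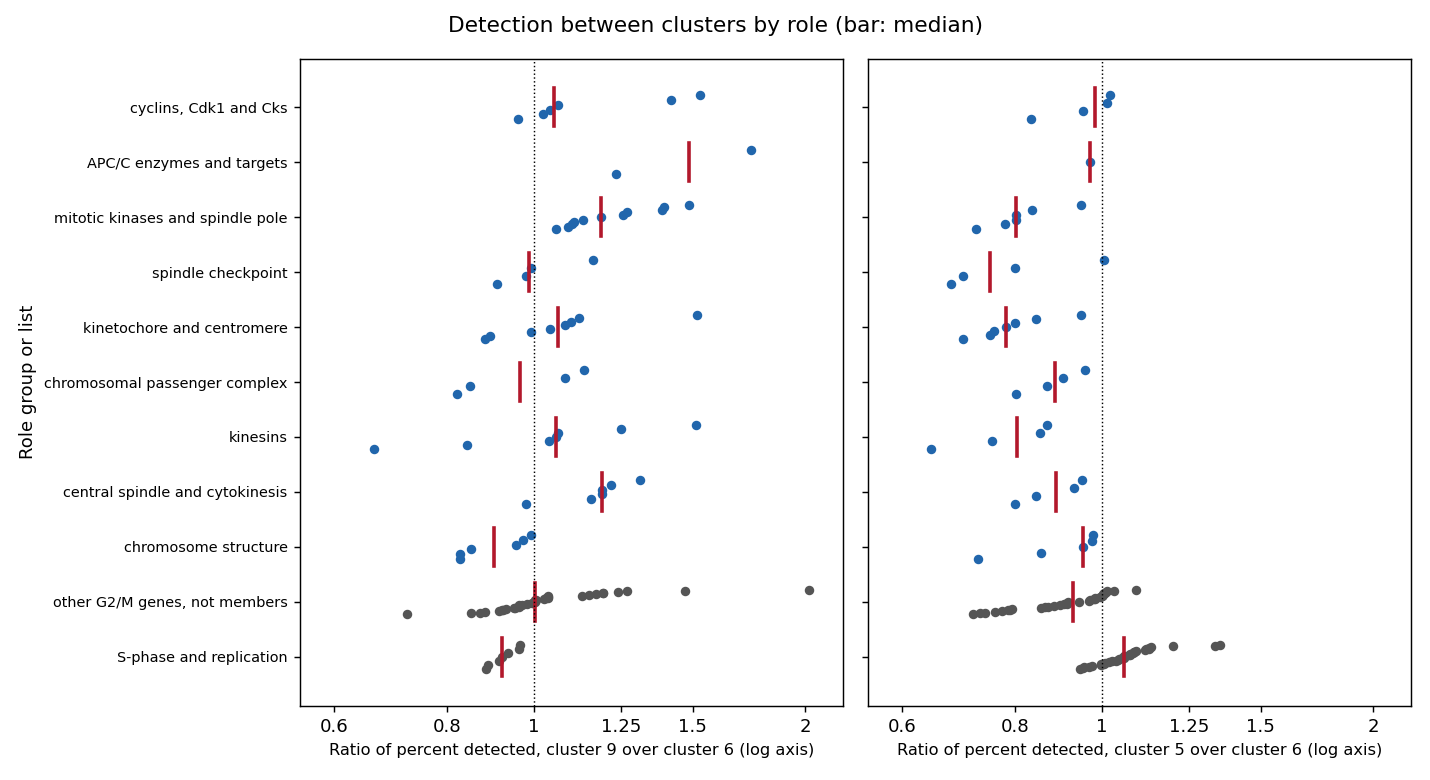
Ratio of percent detected in cluster 9 over cluster 6 (left) and in cluster 5 over cluster 6 (right), on log axes, for the genes of each role (blue points), for other G2/M genes and for S-phase genes (grey points), with medians as red bars. In the first panel, all 11 genes of the kinase and spindle pole group lie to the right of 1 and all 6 of chromosome structure to its left. The kinases Cdk1, Bub1 and Aurkb are in other groups and lie to the left of 1 there. S-phase genes lie mostly to the right of 1 in the second panel.

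For genes with no entry in cluster 5, the pooled values still set an upper limit there. How often a gene is detected among all cells together is fixed by any 1 of its entries and by the share of cells in that cluster. These shares were solved from the table as 8.81% of cells in cluster 5, 7.46% in cluster 6 and 5.80% in cluster 9. Their rounding errors, as 95% half-widths, were 0.0962, 0.0832 and 0.106 percentage points. The limit assumes that every positive cell not accounted for by an entry lay in cluster 5, with the shares lowered by these errors. Detection among all cells was kept as solved, so the limits are approximate and not a worst case. On that basis Kif2c could be detected in at most 34.7% of the cells of cluster 5, Cep55 in 40.1%, Aspm in 42.5%, Kif23 in 47.0% and Plk1 in 48.5%. For these 5 genes the limit lay below the detection in cluster 6, and for 12 of the 19 genes without an entry it lay below that in cluster 9. Of the 19, Ccnf and Ttk had no entry for cluster 9 to compare with, and Pttg1 had none for cluster 6. For the genes other than these 5, cluster 5 could not be placed against cluster 6.

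The same shares gave the place of the positive cells. The 3 clusters together held 22.1% of all cells. Of the cells with a given gene detected, they held 33.5% to 92.0%, with a median of 83.2% over the 39 genes listed for each of them, and at least 50% for 35 of the 39. The highest were Ckap2l at 92.0%, Nuf2 at 91.7%, Bub1 and Dlgap5 at 91.5% each and Nusap1 at 91.1%. For Nuf2 this left 1.26% of the cells of the other 9 clusters with the gene detected. Below 50% were Cks2 at 47.1%, Smc4 at 40.5%, Cks1b at 35.6% and Bub3 at 33.5%, for which 28.9%, 39.3%, 49.6% and 47.2% of the cells elsewhere were positive. The familiar proliferation marker Mki67 had 83.2% of its positive cells in the 3 clusters, and Top2a 65.1%. Of the 3 clusters, the one with the largest part was cluster 6 for 21 genes and cluster 5 for 18, and for none of the 39 was it cluster 9, the smallest of them. Detection over all cells ran from 7.82% for Ccnf to 70.7% for Arl6ip1, with a median of 15.6%.

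**Figure D4:**
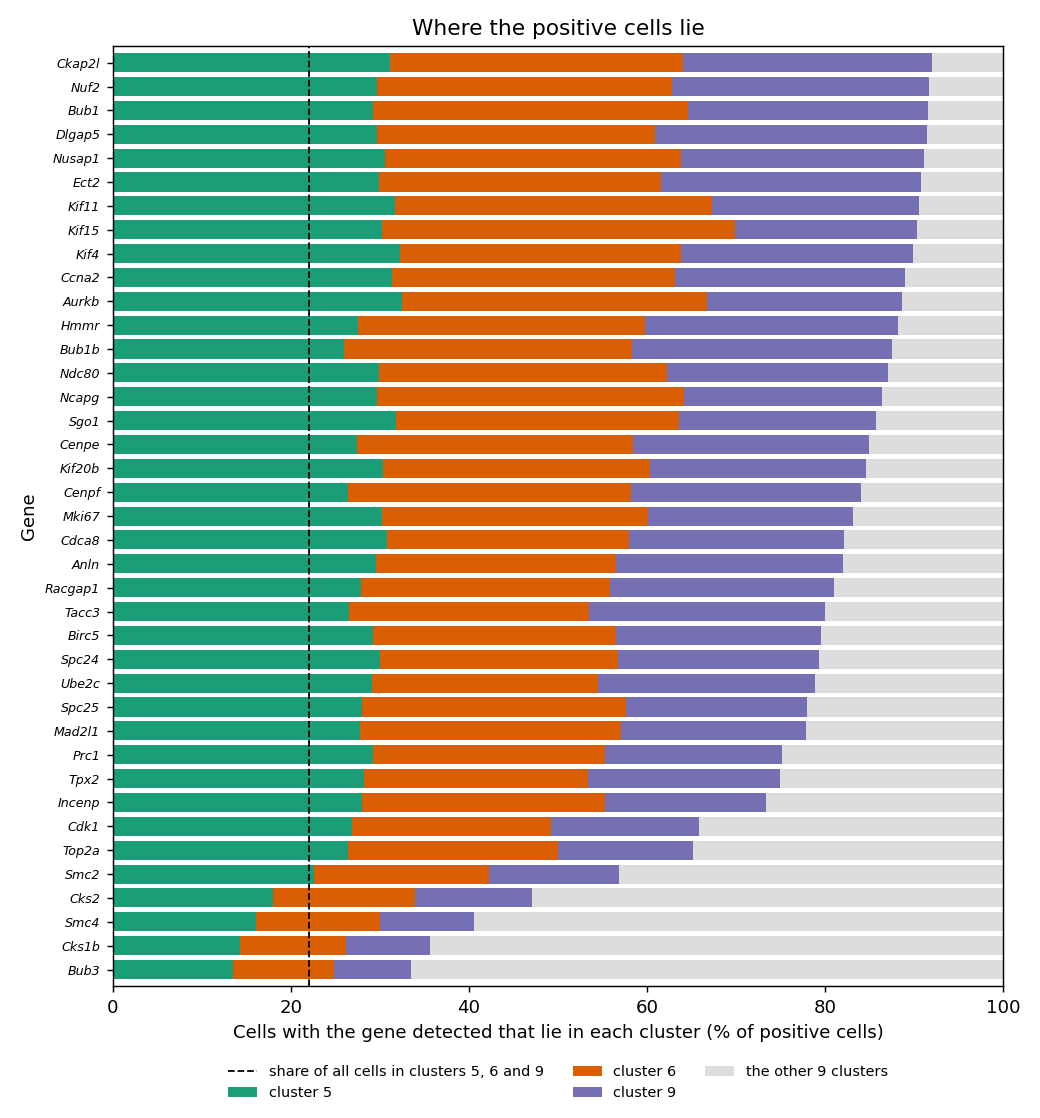
Percent of the cells with a gene detected that lie in clusters 5, 6 and 9 and in the other 9 clusters (stacked bars, which add up to 100%), for the 39 genes with entries for all of clusters 5, 6 and 9. The dashed line marks the 22.1% of all cells that these clusters hold, where the third segment would end if positive cells were spread evenly, and the segments end between 33.5% for Bub3 and 92.0% for Ckap2l.

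In the other 9 clusters, 33 of the 58 genes had 181 entries, of which 175 showed lower detection inside the cluster than outside it and 157 a ratio of at most 1 to 1.5, counted here as lower. The other 25 genes had no entry there. Cluster 0 had 20 lower genes of the list, while 2.33% of all genes of the table were lower there. Cluster 1 had 28, with 3.28% of all genes, cluster 2 had 23, with 6.46%, and cluster 3 had 27, with 2.54%. Cluster 7 had 16, with 1.49% of all genes, cluster 8 had 20, with 9.76%, and cluster 11 had 16, with 16.1%. Cluster 4 had 4, with 48.3% of all genes, and cluster 10 had 3, with 17.8%. These were all the entries of the list in clusters 4 and 10. Most genes with an entry there were lower too, 1887 of 2072 in cluster 4 and 695 of 718 in cluster 10. The entries above the outside level were 3 in cluster 0, 1 in cluster 2 and 2 in cluster 11, and they belonged to Cks1b, Smc4 and Arl6ip1.

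These clusters were not equal among themselves. Cluster 0 exceeded cluster 3 in all 24 genes listed for both, with medians of 8.25% and 3.75%, but it also did so in 79.3% of the 198 genes of the whole table listed for both. Cluster 1 was above cluster 3 in 25 of 26, against 83.5% of 273 genes of the whole table, so most genes leaned the same way in these pairs. Cluster 11 exceeded cluster 3 in all 22 genes, with medians of 10.8% and 3.75%, against 36.4% of 352 genes of the whole table. Being above cluster 3 was not particular to cluster 11. Cluster 2 was above it in 19 of 21 genes (37.9% of 248 genes of the whole table) and cluster 8 in 21 of 22 (33.1% of 272). Cluster 11 was also above cluster 8 in 21 of 21 genes (55.9% of 860 genes of the whole table). It was above cluster 2 in 21 of 21 (55.2% of 773) and above cluster 0 in 16 of 21 (29.8% of 540). Detection of Mki67, for example, was 13.1%, 5.4%, 3.2% and 2.3% in clusters 11, 0, 1 and 3. Ube2c followed with 14.2%, 9.3%, 4.8% and 3.9%, and Top2a with 26.1%, 14.3%, 11.5% and 7.0%.

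Genes of neighbouring functions were set beside the list. Of 37 genes of S phase and DNA replication, 35 had an entry, and 34, 34 and 7 were higher in clusters 5, 6 and 9. Among all genes of the table, 11.8%, 13.5% and 9.27% were higher there. Tk1, the thymidine kinase, was detected in 72.1%, 68.1% and 62.8% of cells in clusters 5, 6 and 9 and Pclaf, a PCNA partner, in 92.0%, 91.6% and 83.8%. Ccne2 (cyclin E2) was found in 53.6% and 55.5% and the helicase loader Cdc6 in 33.4% and 31.1% of cells in clusters 5 and 6, with no entry for cluster 9. Cluster 5 exceeded cluster 6 in 26 of 33 S-phase genes, with a median ratio of 1.06, against 3 of 39 genes of mitosis. Cluster 9 exceeded cluster 6 in 0 of the 7 S-phase genes listed for both. In clusters 5 and 6, many genes of both kinds were thus higher. In cluster 9 all 7 S-phase genes with an entry were higher, and the others have no value there.

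Of 68 other genes of G2 and mitosis, 52 had an entry, of which 29, 40 and 32 were higher in clusters 5, 6 and 9. Over all genes of the table, 11.8%, 13.5% and 9.27% were. Cdkn3, a phosphatase of Cdk kinases, stood at 38.8% and 78.4% in clusters 6 and 9 and the centrosomal kinase Nek2 at 37.7% and 44.2%. Esco2, which acetylates cohesin during replication, was detected in 56.0% and 70.5% of cells in clusters 5 and 6 and Cdca5, sororin, in 32.9% of cluster 6. Cluster 9 exceeded cluster 6 in 18 of 35 of these genes, with a median ratio of 1.00. Of 14 cell cycle inhibitors 9 had an entry. In cluster 6, where 13.5% of all genes of the table were higher, 3 of the 14 were. These were Cdkn2c at 64.9% against 25.4% outside, Cdkn1b (p27) at 76.8% against 46.8% and the antiproliferative gene Btg1 at 96.3% against 63.0%. Btg2 and Gadd45a, also listed for cluster 6, were detected in fewer cells inside it than outside, 53.0% against 56.0% and 28.2% against 34.6%. In clusters 5 and 9 Btg1 was the only inhibitor with an entry. It stood at 56.2% and 63.4%, against 66.4% and 65.6% outside, and the other inhibitors have no value there. Of 8 genes of cohesin and related SMC proteins 5 had an entry, and 2, 5 and 1 of them were higher in clusters 5, 6 and 9. The shares of all genes that were higher there were again 11.8%, 13.5% and 9.27%. Rad21, the cleavable ring subunit, stood at 73.3%, 85.9% and 84.5%, Smc1a at 90.9%, 96.4% and 89.0%, and Pds5b at 64.2% in cluster 6.

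Markers of fat cell formation set cluster 6 apart from clusters 5 and 9, while all 3 carried the genes of mitosis. Fabp4, the fatty acid binding protein of fat cells, was detected in 59.9%, 99.9% and 67.7% of cells in clusters 5, 6 and 9, and Scd1, a fatty acid desaturase, in 48.9%, 99.4% and 49.6%. Serpina3n, used by the study to mark differentiating cells, reached 36.7%, 89.7% and 35.7%. Col5a3, of the same use, stood at 24.9% in cluster 5 and 83.1% in cluster 6. The preadipocyte markers Mmp3 and F3 were detected in 32.7% and 65.1% of cells in cluster 6, below the 50.2% and 77.1% outside it, and Mmp3 in 52.7% of cluster 9. What part these differences had in the ratios between the clusters was not tested. Itgb1 was near the bound in all 3, at 99.6%, 96.3% and 99.0%. None of the 5 immune, 3 endothelial or 4 glial markers looked for had an entry in any cluster, and the authors had removed such cells before clustering.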

How the data were processed

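The data are single-cell RNA-seq of 8 samples, 4 groups of 2 by genotype and day, per the labels. According to its methods, the study mapped 3′ reads to mm10 with Cell Ranger 6.0.0, aggregated the captures at equal read depth, filtered and log-normalised the cells, and clustered what remained after immune, endothelial and glial cells had been taken out. No removal of doublets and no correction for cell cycle is described, and doublets could not be looked for in a table without single cells. Used here were 2 columns of the table the authors deposited, the fraction of positive cells for each gene in the cluster and in the remaining cells, printed as percents. Its MAST p-values, log2 fold changes and adjusted p-values are the authors' own comparison of clusters and were not used. The number of unused columns that hold values of single samples is 0.

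Percents inside and outside were divided. Shares of clusters came from a least squares solution over the 10 genes with entries for all 12 clusters, since each entry of a gene must give the same detection among all cells together. Over the 55 genes of the list with at least 2 entries it differed by at most 0.13 percentage points. The solver was tested on simulated data. Motifs were counted in the first listed RefSeq promoter of each gene. The named genes are the whole list, the cell type markers, and the 2 genes of each other list with the largest ratio in clusters 6 and 9. Named besides these were the inhibitors Btg1, Btg2 and Gadd45a in cluster 6. The genes and lists were chosen with earlier results of these data known. Alternatives were other call rules, shares, odds, a ceiling of 90% and 200 promoter bases. Python 3.11.15, numpy 2.4.6 and pandas 2.3.3 were used.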

Additional observations from a re-analysis of the deposited data

How the results depend on the processing

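Under the alternatives tried, 23 of 25 values moved little and kept their direction. Counts of higher genes in clusters 5, 6 and 9 were 36, 54 and 52 at a ratio of 2, and 39, 57 and 56 at a difference of 10 percentage points. The other 2 values moved away from 1 in the same direction. With odds of detection in place of percents, the median of cluster 9 over cluster 6 was 1.30 (1.08 with percents) and that of cluster 5 over cluster 6 was 0.613 (0.844 with percents). Odds stretch values near 100% by construction. Among genes under 90% in both clusters the medians were 1.09 over 43 genes and 0.802 over 33. Shares solved from all 2691 genes with at least 2 entries gave a median of 83.5% of positive cells in clusters 5, 6 and 9. With 200 bases, 36 promoters held CCAAT and 24 held TTTGAA or TTTAAA. No paired analysis was possible because single samples have no values in the table, and leaving out a replicate could not be run for the same reason.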
